A study of Mus musculus with 6 samples.

Results

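The genes examined here encode the stathmins, doublecortin and the main neuronal microtubule-associated proteins (MAPs). They are the 10 genes Stmn1, Stmn2, Stmn3, Stmn4, Dcx, Map1a, Map1b, Map2, Mapt and Map6, chosen by gene symbol from the 24060 genes of the deposited count table, and all 10 passed the filter on low counts that left 16449 genes to be tested. RNA-seq was carried out on retinal ganglion cells (RGCs), the neurons whose axons form the optic nerve, from C57BL/6 mice at embryonic day 18 (E18) and at postnatal day 5 (P5). The cells were purified by immunopanning on antibodies to CD90 (Thy1) after macrophages had been removed, and no treatment or allele is given for either age. The comparison asks how the microtubule genes of RGCs differ between an age of strong intrinsic axon growth and an age at which this ability has been lost. There were 3 samples at E18 (replicates 1, 3 and 4) and 3 at P5 (replicates 6, 8 and 9), with 81213639 to 114512853 read counts on genes per sample. The labels do not say how many animals or litters gave a sample, and the column of E18 replicate 1 carries the numbers 2 and 5 besides 1, so the p-values measure the spread between these samples.

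Microtubules are polymers of tubulin that give axons and dendrites their tracks and their shape, and growing axons depend on how fast their ends grow and shrink. Stathmins bind free tubulin and favor disassembly, and their activity is lowered by phosphorylation. Doublecortin and the MAPs bind the microtubule wall, where they stabilize, space or bundle the polymer. Several are textbook markers of neuronal age, with Dcx and Map1b typical of young, growing neurons and Map1a of mature ones.

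The 4 stathmins share a core that binds tubulin, and Stmn2, Stmn3 and Stmn4 carry an extension at the front of the protein that attaches it to membranes. Their likeness bears on how well reads can be told apart, so the 30 coding bases most alike in all 4 (GENCODE M21 transcripts on mm10) are shown, with bases that differ from Stmn1 in capitals.
Stmn1: aacttcagcaagatggcggaggagaagctg
Stmn2: aacttcagcaagatggcggaggagaagctg
Stmn3: aacttTagcCGCCtggcggaggagaagctC
Stmn4: aacttcaTcaagatggcAAaAgagaagctg
These lie in exons at chr4:134472891-134472920 on the plus strand for Stmn1, chr3:8554879-8554908 on the plus strand for Stmn2, chr2:181307291-181307320 on the minus strand for Stmn3 and chr14:66357933-66357962 on the plus strand for Stmn4. Stmn2 matched Stmn1 at each of these bases, Stmn4 differed at 4 and Stmn3 at 6. Over the whole coding sequences, of 447 bases in Stmn1, 537 in Stmn2, 540 in Stmn3 and 648 in Stmn4, pairs were 68.2% to 73.6% identical where aligned. The longest identical run between any of these transcripts was 43 bases, between Stmn1 and Stmn2, and no stretch of 100 bases, the length of a read, was shared.

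RefSeq promoter windows on GRCm38.p6, the assembly of mm10, were found for 5 of the 10 genes. Those of Map1b, Map1a and Dcx are printed as far as they lie outside annotated exons, since Map1a and Map1b are relatives that moved in opposite directions and Dcx had the highest E18 over P5 fold of the 10. Capitals mark matches on either strand to 4 motifs. The first is the core bound by ETS factors, searched as CCGGAA. The second is the TATA box, searched as TATAAA. The third is the GC box, searched as GGGCGG. The last is one form of the E-box, searched as CAGCTG, which no window of the 5 genes held.
Map1b: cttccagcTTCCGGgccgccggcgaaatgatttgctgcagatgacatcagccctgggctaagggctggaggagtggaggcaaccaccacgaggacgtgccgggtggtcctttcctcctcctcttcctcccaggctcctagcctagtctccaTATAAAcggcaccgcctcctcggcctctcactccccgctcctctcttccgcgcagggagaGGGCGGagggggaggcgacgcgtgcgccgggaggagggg
Map1a: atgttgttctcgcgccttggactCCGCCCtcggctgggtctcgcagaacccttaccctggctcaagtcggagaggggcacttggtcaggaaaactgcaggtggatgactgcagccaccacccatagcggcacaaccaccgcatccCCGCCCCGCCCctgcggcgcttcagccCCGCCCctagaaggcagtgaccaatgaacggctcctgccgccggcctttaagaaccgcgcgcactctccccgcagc
Dcx: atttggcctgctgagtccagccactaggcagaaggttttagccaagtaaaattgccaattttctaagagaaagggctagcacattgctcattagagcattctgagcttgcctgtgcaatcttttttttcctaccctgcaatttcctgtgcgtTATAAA
The Map1b window is chr13:99516603-99516852 on the minus strand, that of Map1a chr2:121289352-121289599 on the plus strand and that of Dcx chrX:143933312-143933469 on the minus strand. In the 250 bases before the start, Map1b held a match to the ETS core 242 bases upstream, a TATA box 99 bases upstream and a GC box 39 bases upstream. Map1a held 4 GC boxes, 2 of which overlap by 1 base, and none of the other motifs. Dcx held a TATA box 98 bases before the first of its 2 listed starts. The exon annotation used for printing begins directly after this TATA box, at chrX:143933311, so the distance depends on the start chosen. Of all 32851 windows of this length, 12% held the ETS core, 12.4% the TATA box, 32.7% the GC box and 13% the E-box. GC content over the 250 bases, printed or not, was 66.4% for Map1b, 66.0% for Map1a and 41.6% for the first Dcx start, against a median of 52.4% over all windows. These matches describe the letters of the windows and are not evidence of binding.

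Of the 10 genes, 5 were higher at E18 (Dcx, Stmn1, Stmn4, Mapt and Map1b), 2 were lower (Map1a and Stmn3) and 3 did not pass the test (Stmn2, Map2 and Map6), by edgeR's quasi-likelihood test with Benjamini-Hochberg adjustment over all genes at a threshold of 0.05. The median log2 fold change of E18 over P5 was 0.21 for the 10 genes and 0.00 over all genes tested. Of all genes tested, 43.4% were differentially expressed, 20.8% higher and 22.5% lower at E18, against 7, 5 and 2 of the 10 genes. The ages did not overlap in 6 of the 10 genes, and in 56.1% of all genes tested, so this share is near that of genes at large. In bulk samples, fewer cells of a type and less RNA per cell cannot be told apart. Leaving out each sample in turn, 4 to 6 of the 10 genes passed. The lowest count came without E18 replicate 3, and the count over all genes fell from 7135 to 4575.

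**Figure D1:**
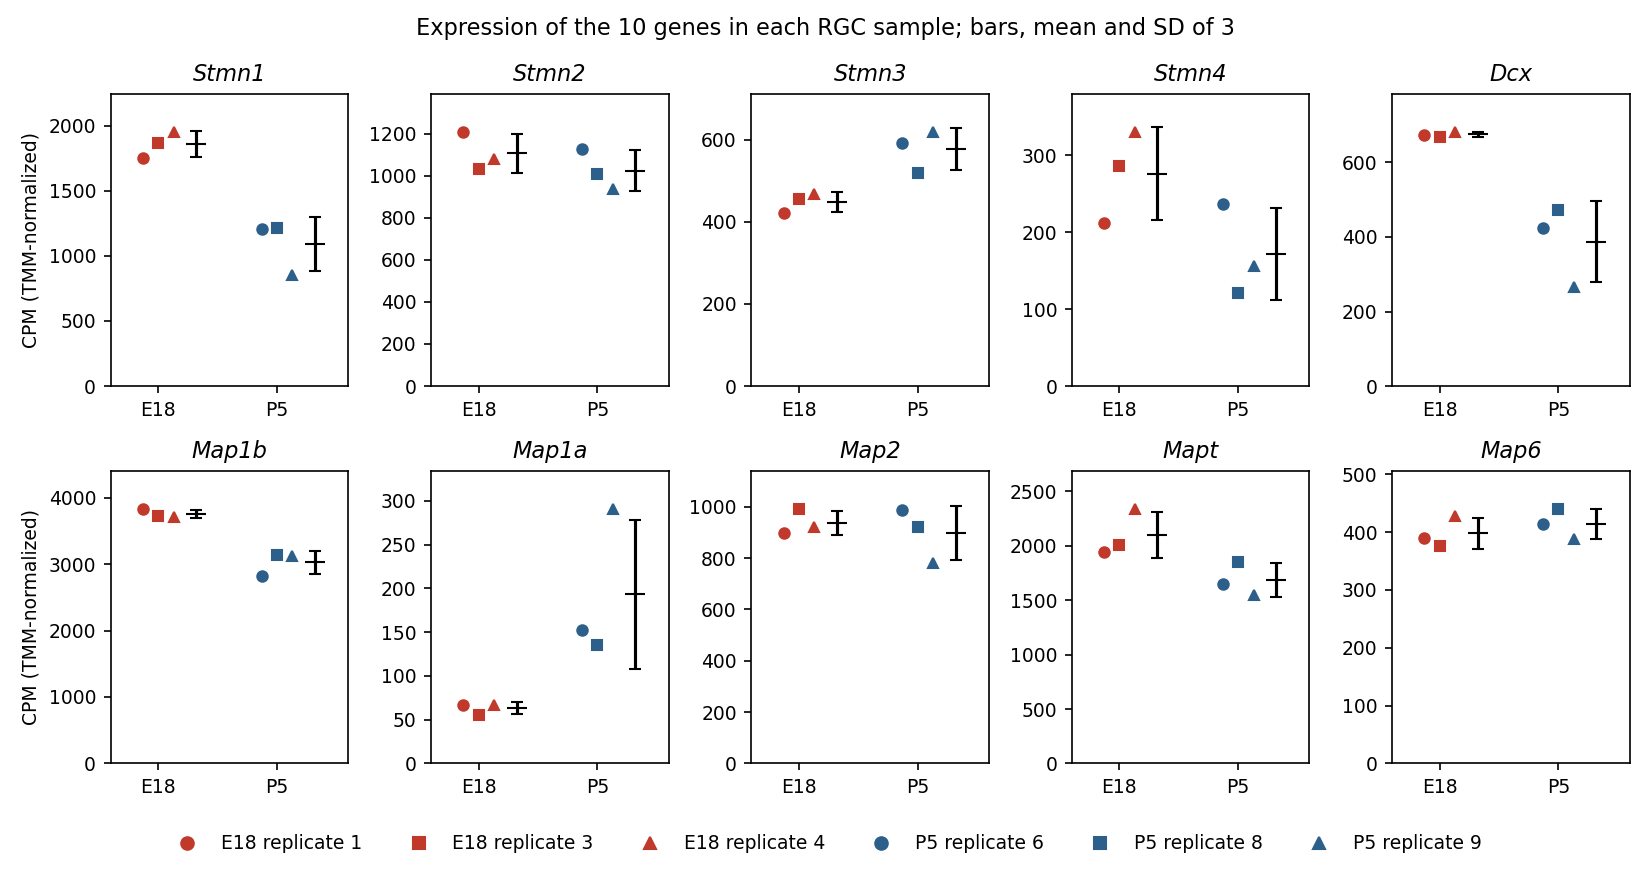
Expression of the 10 genes in CPM (vertical axes starting at 0) in each E18 sample (red) and each P5 sample (blue), with bars for the mean and SD of 3 samples. Stmn1, Dcx, Map1b and Mapt lie higher in every E18 sample than in any P5 sample, Stmn3 and Map1a lie lower, and the ages overlap for Stmn2, Stmn4, Map2 and Map6.

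Summed over the 10 genes, the level was 11391, 11471 and 11973 CPM in E18 replicates 1, 3 and 4, and 9622, 9821 and 8962 CPM in P5 replicates 6, 8 and 9. CPM are read counts scaled to library size by TMM (trimmed mean of M-values), and these genes took 1.12% to 1.16% of the counted reads at E18 and 0.908% to 0.989% at P5. Every E18 sample stood above every P5 sample, a log2 difference of 0.29 in the means, with an exact two-sided permutation p of 0.1. This is the smallest p that 3 samples against 3 can give.

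Stmn1 (stathmin or Op18, the cytosolic member, also known from dividing cells; ENSMUSG00000028832.11, chr4:134468320-134473843, plus strand of mm10) had 1753, 1867 and 1953 CPM in E18 replicates 1, 3 and 4. At P5 it had 1208, 1213 and 855 CPM in replicates 6, 8 and 9. The ages did not overlap, and P5 replicate 9 was the lowest sample. Stmn1 was 1.70-fold higher at E18 (log2 E18/P5 of 0.77, SE 0.136, edgeR adjusted p = 0.00279), and it passed without any one sample, with adjusted p from 0.00192 to 0.0123. Genes of dividing cells were unevenly spread over the same samples, with 386, 151 and 89.8 CPM summed over 14 markers in E18 replicates 1, 3 and 4 and 72.2 to 90.2 at P5, and 9 of the 14 passed the test as higher at E18. At E18 the samples ran in opposite orders for the markers and for Stmn1, and at P5 in the same order, with 90.2, 76.9 and 72.2 CPM of the markers in replicates 8, 6 and 9. The part of dividing cells in the Stmn1 level was not tested.

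Stmn2 (SCG10, a membrane-anchored stathmin of growth cones; ENSMUSG00000027500.10, chr3:8509360-8561606, plus strand) had 1209, 1032 and 1079 CPM in the E18 samples and 1129, 1006 and 935 CPM in the P5 samples, in the same order of replicates. The ages overlapped. Its log2 fold change was 0.11, with a 95% interval of -0.12 to 0.34 (edgeR adjusted p = 0.392). Stmn3 (SCLIP, a close relative of Stmn2; ENSMUSG00000027581.12, chr2:181306459-181314500, minus strand) had 421, 456 and 468 CPM at E18 and 593, 520 and 620 CPM at P5. Every E18 sample was below every P5 sample, and Stmn3 was 1.29-fold higher at P5 (log2 E18/P5 of -0.37, SE 0.0947, edgeR adjusted p = 0.0145). Its call was lost without E18 replicate 1 (adjusted p = 0.0628) or E18 replicate 3 (adjusted p = 0.0514).

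Stmn4 (RB3, another stathmin of neurons; ENSMUSG00000022044.14, chr14:66344296-66361680, plus strand) had 212, 286 and 331 CPM in E18 replicates 1, 3 and 4 and 237, 121 and 157 CPM in P5 replicates 6, 8 and 9. The ages overlapped, since P5 replicate 6 exceeded E18 replicate 1, and the coefficient of variation was 21.8% at E18 and 34.6% at P5. The log2 fold change was 0.69 (SE 0.243, edgeR adjusted p = 0.0481), close to the threshold. Leaving out a sample ended the call in 4 of 6 fits, those without E18 replicate 3, E18 replicate 4, P5 replicate 8 or P5 replicate 9 (adjusted p from 0.111 to 0.134 in edgeR). Upper-quartile normalization also ended it (adjusted p = 0.0509 in edgeR).

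The share of each stathmin in their sum was compared within samples. Per length (RPKM, CPM per kilobase of exon), Stmn1 gave 60.0%, 61.6% and 61.3% of the summed level of the 4 genes in E18 replicates 1, 3 and 4 and 48.0%, 52.7% and 42.2% in P5 replicates 6, 8 and 9. Stmn3 gave 13.5%, 14.0% and 13.7% at E18 and 22.0%, 21.1% and 28.5% at P5, and Stmn2 gave 21.2%, 17.4% and 17.3% at E18 and 23.0%, 22.4% and 23.6% at P5. None of these 3 shares overlapped between the ages, each with an exact two-sided permutation p of 0.1. The shares add up to the whole in each sample, so a lower share of Stmn1 raises the others. They are not independent results, and the level of Stmn2 itself did not pass the test. Stmn4 gave 3.88% to 7.66% over the 6 samples, with overlap (exact permutation p = 0.5). The ratio of Stmn1 to Stmn2 reads, which does not depend on library scaling, was 1.45, 1.81 and 1.81 at E18 and 1.07, 1.21 and 0.915 at P5 (exact two-sided permutation p = 0.1).

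Dcx (doublecortin, which binds and stabilizes microtubules in migrating and growing neurons; ENSMUSG00000031285.14, chrX:143855842-143933311, minus strand) had 673, 669 and 682 CPM in E18 replicates 1, 3 and 4, the tightest values of the 10 genes, with a coefficient of variation of 0.998%. In P5 replicates 6, 8 and 9 it had 425, 472 and 266 CPM, a coefficient of variation of 27.9%. The ages did not overlap, and P5 replicate 9 stood far below the other P5 samples. Dcx was 1.74-fold higher at E18 (log2 E18/P5 of 0.80, SE 0.184, edgeR adjusted p = 0.00875). Without P5 replicate 9 the log2 fold change was 0.59, with an adjusted p of 0.00269 by the same edgeR test.

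**Figure D2:**
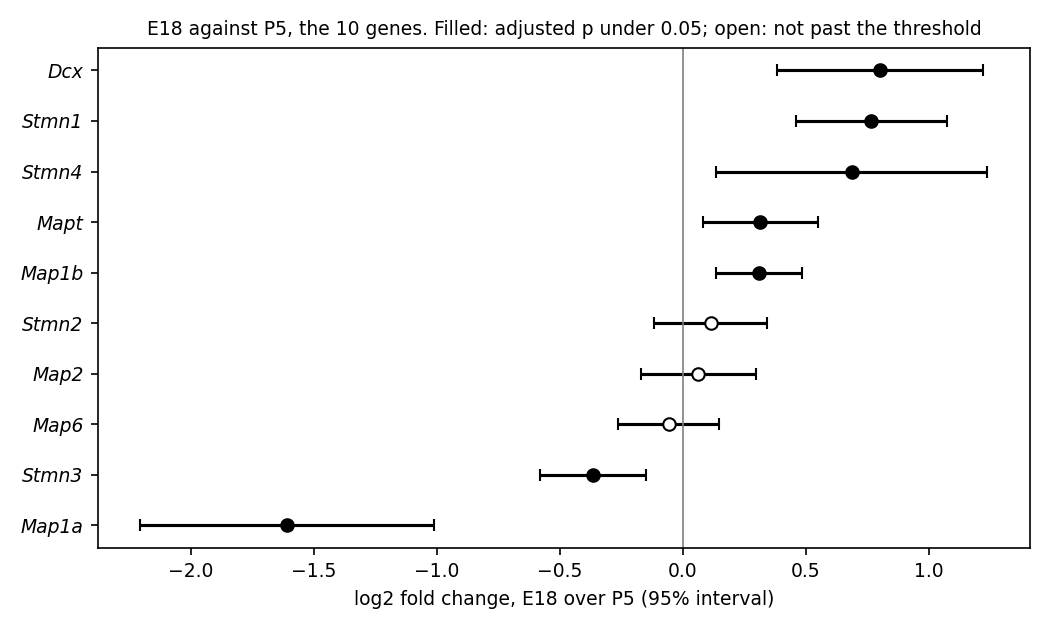
Log2 fold change of E18 over P5 (horizontal axis) for each of the 10 genes, with 95% intervals derived from edgeR's test statistic, filled where the adjusted p was under 0.05. Dcx had the highest value, 0.80, and Map1a the lowest, -1.61, and the intervals of Stmn2, Map2 and Map6 include 0.

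Map1b and Map1a encode relatives of one family, of which Map1b is the form of extending axons and Map1a the form of mature neurons. Map1b (ENSMUSG00000052727.6, chr13:99421446-99516540, minus strand) had 3827, 3727 and 3707 CPM in E18 replicates 1, 3 and 4 and 2826, 3138 and 3117 CPM in P5 replicates 6, 8 and 9. It was 1.24-fold higher at E18 without overlap (log2 E18/P5 of 0.31, SE 0.0765, edgeR adjusted p = 0.0119). Map1a (ENSMUSG00000027254.13, chr2:121289600-121310832, plus strand) had 67.1, 55.9 and 66.9 CPM at E18 and 153, 136 and 291 CPM at P5. P5 replicate 9 was again apart, here as the highest sample. Map1a was 3.05-fold higher at P5 (log2 E18/P5 of -1.61, SE 0.262, edgeR adjusted p = 0.00199), the largest change of the 10 genes. Without P5 replicate 9 it was -1.19 on the log2 scale, with an adjusted p of 0.000606 in edgeR. Map1a shares 272 exonic bases with Ppip5k1, a gene on the opposite strand with 34.9 to 36.6 CPM at E18 and 51.1 to 65.6 CPM at P5, and without the strand setting their shared reads cannot be assigned. Stmn1 shares 66 exonic bases with Gm23634 and Map2 shares 124 with Gm10558, neither of which is a row of the count table.

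The ratio of Map1a to Map1b reads was 0.0175, 0.0150 and 0.0181 in E18 replicates 1, 3 and 4 and 0.0541, 0.0432 and 0.0932 in P5 replicates 6, 8 and 9. The exonic lengths of the genes are alike, 11914 bases for Map1a and 11808 for Map1b, so Map1b was the more abundant of the pair in every sample. On the log2 scale the ratio was 1.84 lower at E18 (3.58-fold), without overlap, with an exact two-sided permutation p of 0.1.

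**Figure D3:**
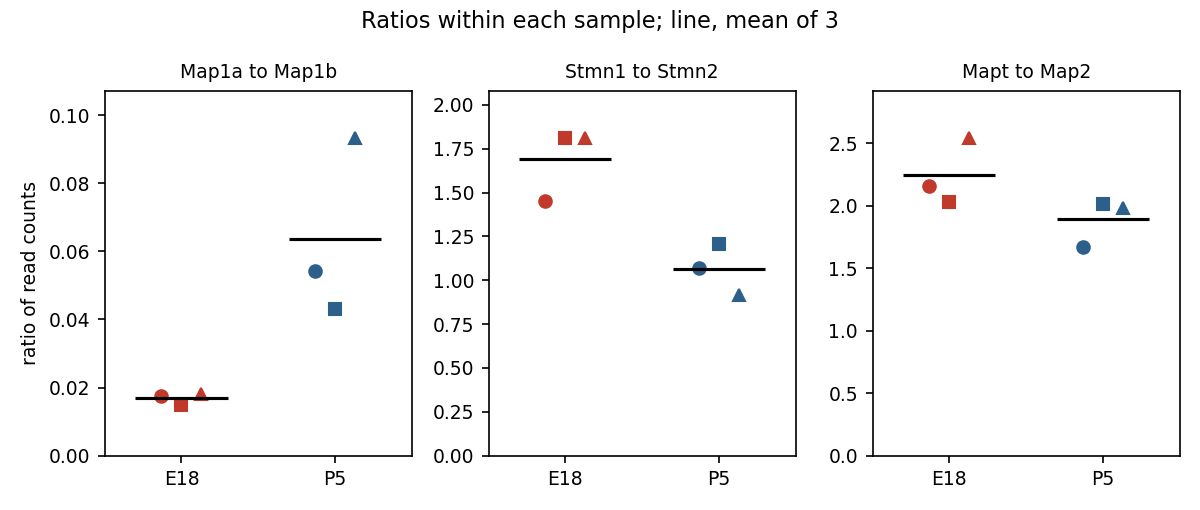
Ratio of read counts within each sample (vertical axes starting at 0) for Map1a to Map1b, Stmn1 to Stmn2 and Mapt to Map2, with a line for the mean of 3 samples. The Map1a to Map1b ratio lies at or below 0.0181 in the E18 samples and at or above 0.0432 in the P5 samples.

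Mapt (tau, the MAP of axons; ENSMUSG00000018411.17, chr11:104231390-104332090, plus strand) had 1941, 2012 and 2338 CPM in E18 replicates 1, 3 and 4 and 1649, 1855 and 1552 CPM in P5 replicates 6, 8 and 9. The ages did not overlap, though the lowest E18 sample and the highest P5 sample were close. Its log2 fold change was 0.32 (SE 0.103, edgeR adjusted p = 0.0367). The call was lost without E18 replicate 3 (adjusted p = 0.0690), E18 replicate 4 (0.129), P5 replicate 6 (0.101) or P5 replicate 9 (0.0986).

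Map2 (the MAP of dendrites and cell bodies; ENSMUSG00000015222.17, chr1:66175273-66442583, plus strand) had 898, 991 and 920 CPM at E18 and 987, 920 and 782 CPM at P5. The ages overlapped, and the log2 fold change was 0.06 with a 95% interval of -0.17 to 0.30 (edgeR adjusted p = 0.646). The ratio of Mapt to Map2 reads was 2.16, 2.03 and 2.54 at E18 and 1.67, 2.02 and 1.99 at P5 (exact two-sided permutation p = 0.1). The highest P5 ratio lay just under the lowest E18 ratio, and the log2 difference of 0.25 fell to 0.15 without E18 replicate 4 and to 0.16 without P5 replicate 6. Map6 (STOP, which keeps microtubules stable in the cold; ENSMUSG00000055407.14, chr7:99267447-99337137, plus strand) had 389, 376 and 427 CPM at E18 and 414, 440 and 388 CPM at P5. Its log2 fold change was -0.06, with a 95% interval of -0.26 to 0.15 (edgeR adjusted p = 0.631). Counts are per gene, so forms of Map2, Mapt and Map6 that differ by splicing were not separated.

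Compared per length, Stmn1 had the highest level of the 10 genes at both ages, with 1753 ± 94.8 RPKM (SD, n = 3) at E18 and 1030 ± 194 RPKM (SD, n = 3) at P5. At E18 it was followed by Stmn2 (534), Stmn3 (394.5), Mapt (386), Map1b (318), Stmn4 (192), Map2 (93.2), Dcx (73.0), Map6 (65.0) and Map1a (5.32) in mean RPKM. Of these neighbors, Stmn3 and Mapt overlapped over their 3 samples, at 371 to 412 and 358 to 431 RPKM. At P5 the order was Stmn3 (508), Stmn2 (494), Mapt (311), Map1b (256), Stmn4 (119.5), Map2 (89.3), Map6 (67.7), Dcx (41.9) and Map1a (16.2) in mean RPKM. Stmn3 and Stmn2 overlapped there, at 458 to 545 and 451 to 545 RPKM. Stmn2 was above Stmn3 in P5 replicates 6 (544.5 against 522 RPKM) and 8 (485.5 against 457.5). It was below Stmn3 in P5 replicate 9 only (451 against 545). Stmn4 and Map2 also overlapped, at 84.3 to 165 and 77.8 to 98.3 RPKM, and their order was the other way round in P5 replicate 8. Dcx lay above Map6 in each E18 sample and below it in each P5 sample.

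The P5 samples differed among themselves more than the E18 samples did for 8 of the 10 genes by coefficient of variation, the exceptions being Mapt and Map6. P5 replicate 9 was the lowest of all 6 samples for 5 genes, Stmn1, Stmn2, Dcx, Map2 and Mapt, and the highest for Stmn3 and Map1a. The same sample had the highest Thy1 level, 690 CPM against 469 to 500 in the other P5 samples and 212 to 312 at E18, and the lowest Mki67 level, 0.967 CPM. The part of the state of that sample in its values was not tested. No other sample was lowest for more than 2 genes, and E18 replicate 4 was highest for 4, Stmn1, Stmn4, Dcx and Mapt.

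**Figure D4:**
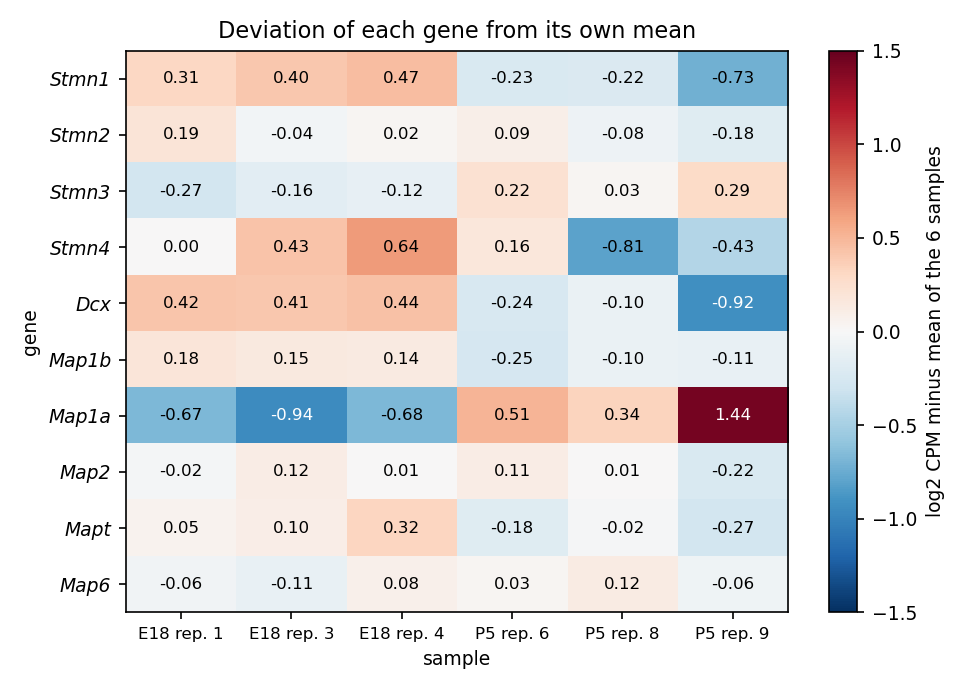
Log2 CPM of each gene (rows) in each sample (columns) minus the mean of that gene over the 6 samples, with red above and blue below the mean. The largest deviations are those of Map1a, 1.44 in P5 replicate 9 and -0.94 in E18 replicate 3, followed by Dcx in P5 replicate 9 at -0.92.

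Profiles over the 6 samples were compared as the root mean square difference of log2 CPM, each gene centred on its own mean, as a description only. Among the 10 genes the closest pair was Dcx and Stmn1, at 0.107, followed by Map2 and Stmn2 at 0.116 and Map1b and Mapt at 0.123. The farthest was Dcx and Map1a at 1.33. Among the 9725 genes whose mean level reached 10 CPM, the closest to Stmn1 were Zfp57 (0.0439) and Tmem44 (0.0442), the closest to Dcx 2410006H16Rik (0.0421) and 1500012F01Rik (0.0465), and the closest to Map1a Eml2 (0.0835) and Rasd2 (0.0897). Those closest to Stmn3 were Rab3gap2 (0.0164) and Dnajc10 (0.0177), those closest to Map1b Ube4b (0.0312) and Med29 (0.0329) and those closest to Mapt Syt13 (0.0354) and Pygo2 (0.0397). For the genes that did not pass, they were Dnajc9 (0.0507) and Pknox2 (0.0508) for Stmn2, Pdcl3 (0.0288) and Btaf1 (0.0339) for Map2 and Hmces (0.0308) and Vps33b (0.0311) for Map6. Stmn4 had no gene nearer than Stard4 (0.132) and Sqle (0.134), the largest of these distances.

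The cells expressed RGC markers at both ages. Summed over 15 markers the level was 6113 to 7203 CPM at E18 and 7202 to 8547 CPM at P5, and 4 of the 15 were higher at E18, 6 lower and 5 not past the test. Nefl, the largest part of this sum, had 1636 to 2134 CPM at E18 and 2361 to 3462 at P5 and was among the lower. Isl1 (log2 fold change 1.10) and Irx2 (0.77) were among the higher, Nefh (-1.89), Slc17a6 (-1.40) and Thy1 (-1.16) among the lower, and Rbpms, a marker of all RGCs, did not pass (293 ± 23.7 and 315 ± 21.5 CPM, SD, n = 3 each, edgeR adjusted p = 0.392). Other neurons also express stathmins and MAPs. The 11 amacrine markers summed to 870 to 958 CPM at E18 and 1161 to 1507 CPM at P5. This sum was mostly Calb2 (748 to 854 and 1137 to 1478 CPM), the 1 marker lower at E18. It therefore follows that gene and is not a measure of amacrine cells. Gad1, Gad2 and Slc6a9, which did not pass, had 0.486 to 35.1, 4.13 to 13.2 and 6.74 to 9.42 CPM over the 6 samples. Of the 9 amacrine markers tested, 5 were higher at E18 (Tfap2a, Tfap2b, Slc32a1, Chat and Slc18a3), and these were high in E18 replicates 1 and 3 only, with Tfap2b at 47.5, 119 and 1.62 CPM in E18 replicates 1, 3 and 4 and 1.02 to 1.55 CPM at P5. The 9 bipolar markers summed to 54.1 to 62.6 and 83.9 to 115.5 CPM, with 1 of the 7 tested higher at E18 and 4 lower. Prkca gave most of this sum, with 40.7 to 45.5 CPM at E18 and 64.8 to 92.2 at P5. Grik1 had 6.11 to 7.47 and 14.5 to 19.3 CPM, and both were among the lower. Otx2 was the 1 higher at E18, with 0.618 to 11.1 CPM against 0.173 to 0.53 at P5. The 12 retinal progenitor markers summed to 163, 123 and 31.1 CPM in E18 replicates 1, 3 and 4 and to 20.5 to 28.7 at P5, and 6 passed the test as higher at E18. The sums of 12 photoreceptor markers (at most 13.4 CPM) and 11 microglial markers (at most 5.18) were low. In E18 replicates 1, 3 and 4 the 9 markers of endothelial cells and pericytes summed to 72.5, 64.5 and 16.4 CPM, and at P5 to 14.6 to 17.7. Kdr gave most of this at E18 (69.5, 62.9 and 14.1 CPM) and was the 1 of 7 tested that was higher at E18, with 3 lower. The 9 oligodendrocyte markers summed to 93.9 to 94.4 CPM at E18 and 56.4 to 75.5 at P5. Of the 7 tested, Mog was higher at E18, and Mag and Olig1 were lower. Mbp, the largest part of this sum, did not pass (44.2 to 47.8 CPM at E18 and 24.9 to 46.2 at P5). The 12 markers of Müller glia and astrocytes summed to 500 to 602 and 475 to 512. The glial sum was mostly Glul (313 to 326 and 230 to 273 CPM), Dkk3 and Vim. Dkk3 had 95.1 to 152 and 166 to 201 CPM, and Vim 82.2 to 93.9 and 29.4 to 45.3. Of 10 glial markers tested, 3 were higher at E18, Glul and Vim among them, and 1 lower, Dkk3. No marker of these lists was at 0 in every sample. The part of these cells in the levels above was not tested.

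The wider microtubule machinery was followed in 6 lists of genes. Of 16 doublecortin-like kinases and other structural MAPs, 5 were higher at E18, 4 lower and 7 not past the test (56.2% called, against 43.4% of all genes), with a median log2 fold change of 0.05. Crmp1, a tubulin-binding partner of semaphorin signaling, had 1421 ± 24.7 CPM in the E18 and 919 ± 120 CPM in the P5 samples (SD, n = 3 each; log2 fold change 0.63). Mtcl1, a microtubule cross-linker, and Map7d1, a partner of kinesin, were higher at E18 by 0.43 and 0.34 on the log2 scale. On the other side, Tppp, which bundles microtubules, had 61.4 ± 6.00 and 174 ± 41.5 CPM (SD, n = 3 each; log2 E18/P5 of -1.51, edgeR adjusted p = 0.000422). Map7d2 and Map4, the latter a broadly expressed relative of Map2 and tau, were also lower at E18 (log2 fold change -0.88 and -0.73). Dclk1 (0.30), Dclk3 (1.03, at a mean of 2.4 CPM) and Map6d1 (-1.56), a relative of Map6, completed the genes past the test and are named after their values were seen.

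Of 16 proteins that track or regulate microtubule plus ends, 4 were higher at E18, none was lower, and 12 did not pass, with a median log2 fold change of 0.14. Clip2, a linker at growing ends, had 220 ± 14.7 CPM in the E18 and 135 ± 21.1 CPM in the P5 samples (SD, n = 3 each; log2 fold change 0.71). Nav2 and Clasp1, which stabilizes growing ends, were higher at E18 by 0.63 and 0.48 on the log2 scale. Ckap5, a polymerase of microtubules, was the other gene (0.24, named after its value was seen). The share called, 25%, is below the 43.4% of all genes. All of it was higher at E18, near the 20.8% of all genes called higher, while 22.5% of all genes were called lower. Of 13 minus-end and nucleation proteins, 3 were higher and none lower (23.1% called, against 43.4% of all genes and 20.8% called higher), with a median of 0.19. Cdk5rap2, a centrosomal activator of nucleation, led with 41.4 ± 6.31 against 17.7 ± 2.24 CPM (SD, n = 3 each; log2 E18/P5 of 1.22, edgeR adjusted p = 0.000563). It had 47.3, 42.2 and 34.7 CPM in E18 replicates 1, 3 and 4. Within each age its samples ran in the same order as the summed markers of dividing cells. The part of dividing cells in its level was not tested. Nin (0.46) and Camsap3 (0.42), which anchor or protect minus ends, followed. The count of 3 fell to 1 without any one of E18 replicates 1, 3 and 4 or P5 replicates 6 and 9, and rose to 5 without P5 replicate 8. Of 8 severing enzymes, 1 was higher (Fign, 12.6 ± 1.43 against 9.19 ± 0.866 CPM, SD, n = 3 each, log2 fold change 0.46), 1 lower with overlap (Katnal1, -0.45, named after its value was seen) and 6 not past the test (25% called, against 43.4% of all genes). No severing enzyme passed without E18 replicate 1, E18 replicate 3, P5 replicate 6 or P5 replicate 9, and 4 passed without P5 replicate 8.

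Of 17 enzymes that modify tubulin, 16 were tested, of which 6 were higher at E18, 2 lower and 8 not past the test (50% called, against 43.4% of all genes), with a median of 0.23. Vash2, which removes the end tyrosine of alpha-tubulin, had 161 ± 18.9 CPM in the E18 and 94.3 ± 26.1 CPM in the P5 samples (SD, n = 3 each; log2 fold change 0.77), whereas Ttl, which puts the tyrosine back, had 85.9 ± 9.05 and 115 ± 10.6 CPM (SD, n = 3 each; log2 fold change -0.43). Atat1, the acetyltransferase of alpha-tubulin, and Agbl5, which removes glutamate from tubulin, were higher at E18 by 0.68 and 0.60 on the log2 scale. Svbp, a partner of the vasohibins (0.60), Ttll5 (0.58), Vash1 (0.39) and Ttll11 (-0.74) were the others past the test, named after their values were seen. Of 18 kinases and activators that act on stathmins and MAPs, 5 were higher and 5 lower (55.6% called, against 43.4% of all genes), with a median of -0.05. Cdk5r1, an activator of Cdk5, had 559 ± 20.4 CPM in the E18 and 398 ± 55.4 CPM in the P5 samples (SD, n = 3 each; log2 fold change 0.49), and its relative Cdk5r2 had 14.8 ± 4.43 and 25.9 ± 3.86 (log2 fold change -0.81). Mark1 and Gsk3b, kinases of tau, were higher at E18 by 0.34 and 0.33 on the log2 scale. Mapk9 and Mapk10, kinases of the JNK group, were lower at E18 (log2 fold change -0.83 and -0.50), with 203 ± 10.8 against 361 ± 42.6 CPM for Mapk9 (SD, n = 3 each). Mapk8 (0.33), Mark2 (0.27) and Gsk3a (-0.25) also passed the test and are named after their values were seen. The count of 10 fell to 4 without E18 replicate 3 and to 6 without E18 replicate 4 or P5 replicate 9.

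**Figure D5:**
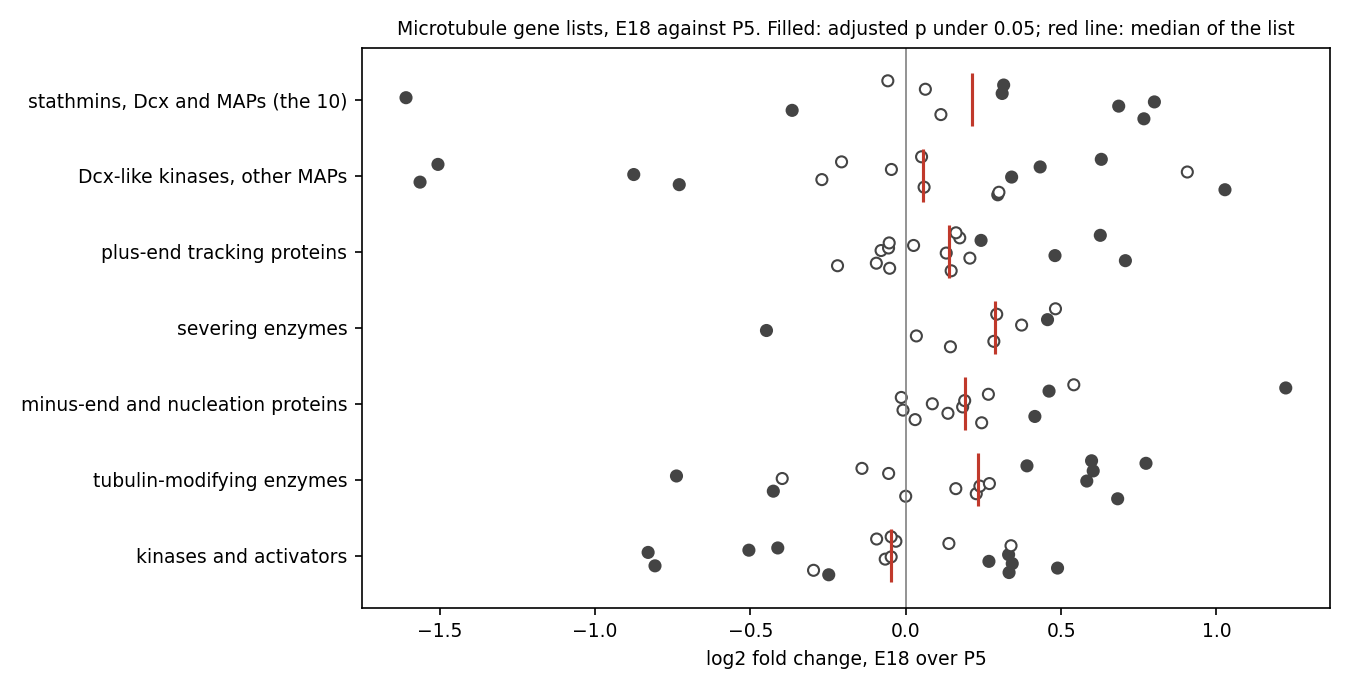
Log2 fold change of E18 over P5 (horizontal axis) of each gene tested in the 10 genes and the 6 lists (rows), filled where the adjusted p was under 0.05, with a red line for the median of each list. The 4 called plus-end genes and the 3 called minus-end and nucleation genes all lie above 0. The structural MAPs and the kinases have called genes on both sides.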

How the data were processed

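RNA was sequenced from immunopanned RGCs in paired reads of 100 bases from libraries depleted of ribosomal RNA, although the labels name polyA RNA. Per the paper's methods, STAR 2.4.0 was the authors' aligner, mm10 their genome, and HT-seq 0.6.1 their counter over RefSeq genes. Neither the strand setting nor the handling of multiply mapped reads is given. The authors deposited raw counts per gene, which were used here. Their normalized counts, a library-scaled signal, and a rank in another column were deposited by the authors and not used. The deposited log2 ratios and p-values hold the authors' own comparison and were not used.

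Samples were grouped by title. TMM scaled the counts, and edgeR 4.0.16 compared the ages by its quasi-likelihood test (R 4.3.3, filterByExpr, 3 against 3, Benjamini-Hochberg adjustment, threshold 0.05), after a test on simulated data. Samples of one age differed by 32.1 to 149 times sampling noise (chi-square per degree of freedom), so the spread between samples, not depth, sets the precision. RPKM used the exons of GENCODE M21 transcripts with a RefSeq match. The list genes Map7d3 and Svbp were matched by an older symbol. Genes of the lists were named if past the threshold without overlap at a mean of at least 10 CPM, at most 3 per direction. Alternatives were DESeq2 1.42.0, edgeR's likelihood ratio and exact tests, upper-quartile and RLE scaling, no filter, a filter of 1 CPM in 3 samples, and the omission of each sample. Some single genes are not reported here. The 10 genes, the lists and the motifs were chosen with earlier results of these data known.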

Additional observations from a re-analysis of the deposited data

How the results depend on the processing

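Stmn1, Dcx, Map1a and Map1b kept their direction and stayed past the threshold in the 7 alternative fits and in the 6 fits that each left out a sample, and Stmn2, Map2 and Map6 never passed. Stmn4 lost its call under upper-quartile normalization (log2 fold change 0.69, adjusted p = 0.0509 in edgeR). Leaving out each sample, the log2 fold changes ranged from -0.46 to -0.31 for Stmn3, 0.47 to 0.97 for Stmn4, 0.23 to 0.37 for Mapt and -0.03 to 0.12 for Map2, which changed sign without P5 replicate 9 (-0.028). The counts of called genes then ranged from 4575 to 8796 over all genes, 4 to 6 over the 10 genes, 0 to 4 for severing enzymes, 1 to 5 for minus-end and nucleation proteins and 4 to 11 for kinases and activators. Which feature of the samples moves these counts was not tested. The other lists stayed within 1.5 times, and the ratios kept their direction. The summed level was checked only with library totals without TMM factors, where it kept its direction (log2 difference 0.27). No paired analysis was possible because the ages share no replicate number. The 95% intervals of Stmn2, Map2 and Map6 bound what 3 samples per age could show.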
